A study of Mus musculus with 12 samples.

Results

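The fibroblast growth factor (FGF) genes of hair were followed through mouse back skin as a set of 9, made up of the ligands Fgf5, Fgf7, Fgf10, Fgf18 and Fgf22 and the receptors Fgfr1, Fgfr2, Fgfr3 and Fgfr4. They were taken by symbol from the 18505 genes of the deposited RNA-seq table, which held all 9, and all 9 passed the filter on low values that left 15288 genes for testing. The samples were back skin of male wild-type BALB/c mice of 5 to 6 weeks with shaved backs, treated daily and taken on day 10, with 4 samples in each of 3 groups. Control mice had petroleum jelly put on the skin, and the methods name no cover for them. Mice of the IMQ + NS group were given a cream with imiquimod (IMQ), a drug that activates Toll-like receptors and gives a psoriasis-like inflammation, and 6 h later the skin was covered with normal saline (NS). Mice of the IMQ + BZLF group had the same cream and, after the same 6 h, a cover of Banzhilian formula (BZLF), a mixture of plant materials and cicada slough, at a dose that was not given for the sequenced samples. In both IMQ groups the cover was held by gauze and a polyurethane film, so in each comparison with control samples IMQ and this dressing cannot be told apart. None of the 12 samples received BZLF without IMQ.

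FGF ligands are secreted proteins that act over short distances. With heparan sulfate as a partner they pair receptor tyrosine kinases on the target cell and switch on the MAP kinase cascade, and that cascade in turn induces its own inhibitors. In hair-bearing skin they link dermis and epithelium through the hair cycle, in which follicles pass from growth (anagen) through regression (catagen) to rest (telogen). Fgf7 and Fgf10 come from dermal cells and act on the epithelium, Fgf18 is made in the resting follicle, Fgf22 is known from the inner root sheath, and Fgf5 from the outer root sheath brings the growth phase to its end. Mice without Fgf5 carry long hair.

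Expression is given as FPKM, fragments scaled by transcript length in kilobases and by how many fragments were mapped, so that levels of different genes can be set side by side per length. Differences are given on the scale of log2(FPKM + 0.1) with limma's adjusted p, and a gene was called changed at an adjusted p below 0.05 and a difference over 1 in size. Limma's p-values set a difference between groups against the spread between the 4 samples within each group. That spread is moderated with the help of all genes tested. The labels call the 4 of a group separate samples and say no more of how they were taken. In whole skin, fewer cells of a type and less RNA per cell cannot be told apart.

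Marker genes of skin were present in all samples. The summed FPKM of 6 basal keratinocyte genes, mostly from Krt5 and Krt14, was 1023 to 1395 in the control group. It was 3134 to 5289 in the IMQ + NS group and 1443 to 2112 in the IMQ + BZLF group. In IMQ + NS against control samples Krt5, Krt14 and Trp63 were called higher, beside 11.4% of all genes, and the other 3 were not called. Of the 13 marker lists, that of the hair shaft had the largest median difference between IMQ + NS and control samples (8.14). Summed over 8 hair shaft keratins, FPKM was 10.9 to 291 in control samples, 5197 to 7668 with IMQ + NS and 6987 to 10630 with IMQ + BZLF. Control replicate 2 stood apart from the other control samples. It held the 291 of that range, whereas the others reached 29.1 at most. On the first principal component, which carried 76.4% of the variance, it lay at -63.2 and the other control samples between -122 and -116. For many results that lean on this library, values without it are given as well.

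Of the 9 FGF genes, 5 were called in IMQ + NS against control samples. Fgf5 and Fgf22 rose, and Fgf7, Fgf18 and Fgfr4 fell. Over all 15288 genes tested, 22.4% were called, 11.4% higher and 11.0% lower. By the adjusted p alone 8 of the 9 passed, beside 56.1% of all genes. The median difference of the 9 was -0.55, and that of all genes 0.05. In 7 of the 9 the samples of both groups did not overlap, beside 49.4% of all genes. Without control replicate 2, 6 of the 9 were called, beside 26.6% of all genes.

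**Figure D1:**
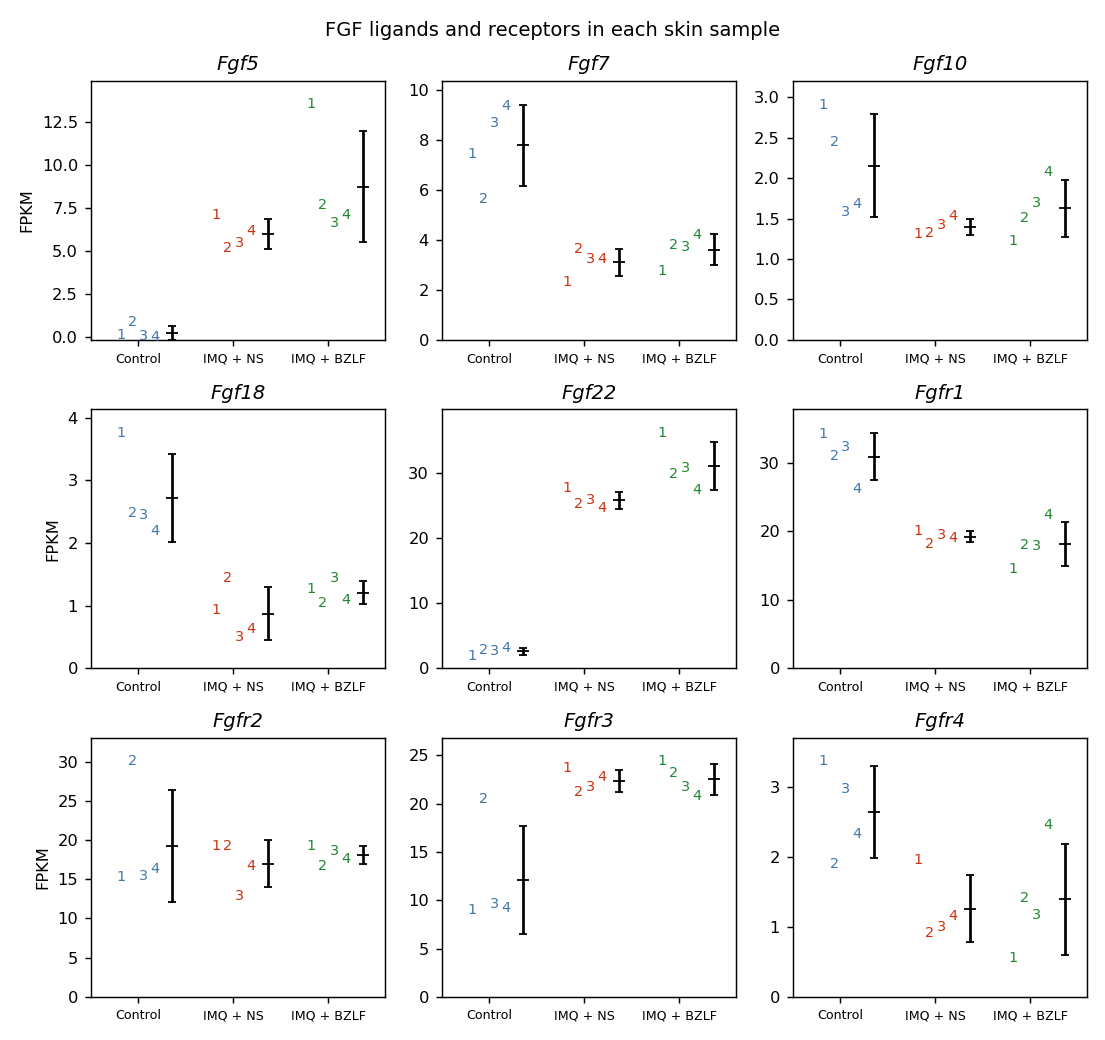
FPKM (vertical axis, a separate linear scale in each panel) of the 9 FGF genes by group (control, then IMQ + NS, then IMQ + BZLF), each digit being 1 sample with its replicate number, and the bar showing the mean ± SD of 4 samples. Fgf22 lay between 1.86 and 3.09 in control samples and between 24.6 and 36.1 in the samples with IMQ, and control replicate 2 was the highest control sample for Fgf5, Fgfr2 and Fgfr3.

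Fgf5, the ligand that ends hair growth, was nearly silent in control skin. It measured 0.130, 0.889, 0.0613 and 0.0309 FPKM in control replicates 1 to 4, and 7.11, 5.17, 5.47 and 6.16 FPKM in IMQ + NS replicates 1 to 4. The highest control sample, replicate 2, was still far below every IMQ + NS sample. The mean was 21.5 times higher in the IMQ + NS group (0.278 ± 0.410 against 5.98 ± 0.863 FPKM, SD, n = 4 each). The difference was 4.52 (SE 0.564, 95% interval 3.24 to 5.80, limma adjusted p = 2.5e-04), and 5.16 without control replicate 2. The gene lies at chr5:98254184-98277033 of the mouse build GRCm38.p6.

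Fgf22, a ligand of the Fgf7 subfamily, showed the smallest spread relative to its difference. Its 4 control samples held 1.86, 2.87, 2.68 and 3.09 FPKM. The IMQ + NS samples held 27.7, 25.3, 25.8 and 24.6 FPKM. The groups lay far apart, with means of 2.63 ± 0.537 and 25.8 ± 1.33 FPKM, and the IMQ + NS mean was 9.83 times the control mean. The difference was 3.27 (SE 0.150, 95% interval 2.93 to 3.61, limma adjusted p = 9.3e-07). Fgf22 lies at chr10:79755051-79757795, and in the GENCODE annotation its last bases overlap Rnf126 on the opposite strand. Of the 7 inner root sheath genes all were called higher in the same comparison, and their summed FPKM was 19.3 to 1959 in control samples, with the 1959 in replicate 2, and 8180 to 10400 with IMQ + NS. In control replicate 2 Fgf22 was 2.87 FPKM, inside the range of the other control samples. The part of inner root sheath cells in the rise of Fgf22 was not tested.

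Fgf7, the keratinocyte growth factor that dermal cells send to the epithelium, was the most abundant of the 5 ligands in control skin. It measured 7.45, 5.65, 8.68 and 9.36 FPKM there, and 2.31, 3.62, 3.23 and 3.23 FPKM in the IMQ + NS samples. Every IMQ + NS sample was below every control sample. Mean expression was 7.79 ± 1.63 in the control group and 3.10 ± 0.557 FPKM in the IMQ + NS group, 2.51 times lower, with a difference of -1.30 (SE 0.190, 95% interval -1.73 to -0.86, limma adjusted p = 5.75e-04). The gene, at chr2:126034658-126091185, lies within Fam227b on the opposite strand, and since the sources differ on the library kit and the counting, it is not known whether reads were assigned by strand. The same holds for Fgf10, Fgfr1 and Fgfr3, each overlapped by a transcript of the opposite strand.

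Fgf18, a ligand of the resting follicle, measured 3.76, 2.48, 2.45 and 2.20 FPKM in the control group. With IMQ + NS it measured 0.933, 1.44, 0.499 and 0.629 FPKM. The groups again did not overlap. The means were 2.72 ± 0.702 and 0.874 ± 0.417 FPKM, 3.11 times lower with IMQ + NS, and the difference was -1.60 (SE 0.301, 95% interval -2.28 to -0.91, limma adjusted p = 0.00217). It lies at chr11:33116970-33147400. With a constant of 1 in the logarithm the call was lost, at a difference of -0.997.

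Fgf10, which shares its epithelial receptor with Fgf7, was not called. Control samples held 2.91, 2.45, 1.58 and 1.68 FPKM, and IMQ + NS samples 1.31, 1.33, 1.42 and 1.53 FPKM. The lowest control sample was just above the highest IMQ + NS sample. The difference was -0.55 (95% interval -1.01 to -0.10, limma adjusted p = 0.0414), and without control replicate 2 it was -0.48 with an adjusted p of 0.0681. Fgf10 lies at chr13:118714699-118792573.

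Most listed markers of fibroblasts, adipocytes and skeletal muscle fell, as Fgf7 and Fgf18 did. In IMQ + NS against control samples 6 of 7 fibroblast genes were called lower, beside 11.0% of all genes. The summed FPKM of the 7, mostly from Col1a1, Col1a2 and Col3a1, was 13520 to 19320 in control samples and 3817 to 5076 with IMQ + NS. The gene not called, Pdgfra, hardly differed (16.0 ± 2.49 against 15.3 ± 1.49 FPKM, difference -0.06, limma adjusted p = 0.683). Of 7 adipocyte genes 5 were called lower (3833 to 8672 against 1891 to 2974 FPKM in sum), as were all 8 skeletal muscle genes (3218 to 7823 against 582 to 1399 FPKM). The control lows of 3833 and 3218 came from replicate 2, and the other control samples held at least 5803 and 7326. None of these genes was at 0 in all samples of a group. The 7 dermal papilla genes did not move as a block, with 1 called higher, 3 lower, and sums of 21.9 to 43.5 and 33.2 to 59.0 FPKM, mostly from Crabp1. The control high of 43.5 came from replicate 2. The other control samples held 21.9 to 25.9, below all IMQ + NS samples. The part of these cells in the falls of Fgf7 and Fgf18 was not tested.

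A promoter stretch of 192 bases is shown for each of the 4 called ligand genes, the first pair from genes that rose and the second pair from genes that fell. Each runs from 250 to 59 bases before the start that the RefSeq promoter table uses. For Fgf5, Fgf7 and Fgf18 that is the start of the gene given here, while for Fgf22 the table's start lies inside the gene, so that its stretch ends directly before the gene and covers another region relative to the gene start. They are RefSeq sequences of GRCm38.p6, at chr5:98253934-98254125 (plus strand) for Fgf5, chr10:79754859-79755050 (plus strand) for Fgf22, chr2:126034408-126034599 (plus strand) for Fgf7 and chr11:33147459-33147650 (minus strand) for Fgf18. They read 5′ to 3′ on the strand of the gene, and capitals mark the GC box, searched as GGGCGG on both strands.
Fgf5: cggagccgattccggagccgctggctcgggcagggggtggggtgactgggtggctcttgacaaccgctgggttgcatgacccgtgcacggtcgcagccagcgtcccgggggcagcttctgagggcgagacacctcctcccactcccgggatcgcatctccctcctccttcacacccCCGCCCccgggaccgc
Fgf22: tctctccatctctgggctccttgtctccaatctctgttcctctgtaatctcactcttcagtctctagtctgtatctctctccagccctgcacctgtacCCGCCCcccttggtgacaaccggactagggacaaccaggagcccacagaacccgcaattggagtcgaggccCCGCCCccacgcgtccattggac
Fgf7: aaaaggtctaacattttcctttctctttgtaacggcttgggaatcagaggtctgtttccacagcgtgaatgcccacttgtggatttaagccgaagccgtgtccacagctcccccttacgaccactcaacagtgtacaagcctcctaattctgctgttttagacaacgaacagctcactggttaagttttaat
Fgf18: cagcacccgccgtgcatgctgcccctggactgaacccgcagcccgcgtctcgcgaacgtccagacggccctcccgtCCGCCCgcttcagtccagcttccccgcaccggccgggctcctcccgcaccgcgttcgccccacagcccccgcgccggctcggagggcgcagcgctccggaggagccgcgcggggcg
The GC box was found 2 times in the Fgf22 stretch and 1 time each in those of Fgf5 and Fgf18, and it was not found in that of Fgf7. Of 32851 stretches of the same length before mouse genes, 23.3% held it. The core of the site of LEF and TCF factors, searched as CTTTGA on both strands, was in none of the 4, while 11.4% of all stretches held it. G and C made up 71.4% of the Fgf5 stretch, 58.3% of that of Fgf22, 45.3% of that of Fgf7 and 78.1% of that of Fgf18, against a median of 51.6% over all stretches. The GC box was thus in both genes that rose and in 1 of the 2 that fell. The stretch of Fgf10, the ligand that was not called, held it 1 time as well, and a link to direction was not tested.

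Of the 4 receptors 1 was called in IMQ + NS against control samples, and of the 5 ligands 4, beside 22.4% of all genes. Deposited values were per gene, so the b and c splice forms of the receptors, which bind different ligands in epithelium and dermis, could not be told apart.

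Fgfr1, the main receptor of dermal cells, had the highest mean of the 9 genes in control skin. Its control samples held 34.2, 31.0, 32.2 and 26.1 FPKM, and the IMQ + NS samples 20.1, 18.1, 19.4 and 19.1 FPKM. The groups did not overlap. The difference of -0.68 (SE 0.0931, 95% interval -0.89 to -0.47, limma adjusted p = 4.1e-04) stayed under the limit on size, and the control mean of 30.9 ± 3.43 was 1.61 times the IMQ + NS mean of 19.2 ± 0.814 FPKM. The fall of 6 of the 7 fibroblast genes given for Fgf7 went in the same direction, and its part was not tested. Fgfr1 lies at chr8:25518759-25575718.

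Fgfr2, whose epithelial form receives Fgf7, Fgf10 and Fgf22, differed least. It measured 15.3, 30.01, 15.4 and 16.3 FPKM in control samples and 19.2, 19.2, 12.9 and 16.7 FPKM in IMQ + NS samples. Control replicate 2 held nearly all of the control group's spread. The difference was -0.13 (95% interval -0.66 to 0.40, limma adjusted p = 0.649), and without that replicate it turned to 0.10 (adjusted p = 0.534). The interval excludes a change past the limit on size in either direction. Fgfr2 lies at chr7:130162451-130266808.

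Fgfr3, a receptor of the epidermis and the hair matrix, measured 8.97, 20.4, 9.61 and 9.22 FPKM in control samples and 23.7, 21.2, 21.7 and 22.8 FPKM in IMQ + NS samples. Control replicate 2, at 20.4, came close to the IMQ + NS samples, and the other 3 control samples were below 10 FPKM. The difference of 0.98 (SE 0.246, 95% interval 0.42 to 1.54, limma adjusted p = 0.00912) missed the limit on size. Without control replicate 2 it was 1.26 with an adjusted p of 1.6e-06, and Fgfr3 was then called higher. Without IMQ + NS replicate 2 it was also called, at 1.002. Fgfr3 lies at chr5:33721724-33737068.

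Fgfr4, the scarcest of the receptors, is known in hair follicles, liver and young muscle cells. Its FPKM was 3.36, 1.89, 2.96 and 2.33 in control samples and 1.96, 0.904, 1.001 and 1.16 with IMQ + NS. IMQ + NS replicate 1 lay above control replicate 2, so the groups overlapped. The difference of -1.04 (SE 0.260, 95% interval -1.63 to -0.45, limma adjusted p = 0.00894) was called, while the exact permutation test gave p = 0.0571. Without control replicate 1 the difference was -0.92, without control replicate 3 it was -0.98, without IMQ + NS replicate 2 it was -0.92 and without IMQ + NS replicate 3 it was -0.96, and none of these was called. A constant of 1 in the logarithm ended the call too (-0.69). Of 4 muscle genes listed for satellite cells, Pax7 and Myf5 did not pass the filter. The other 2, Myod1 and Chrna1, were called lower in the same comparison, as were all 8 skeletal muscle genes. The summed FPKM of the 4 was 2.47 to 4.91 in control samples, mostly from Myod1, and 0.372 to 0.924 with IMQ + NS. That of 5 hepatocyte genes was 2.20 to 8.48 and 1.96 to 3.05. The part of muscle in the fall of Fgfr4 was not tested. Fgfr4 lies at chr13:55152818-55168759.

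For the 7 genes without overlap, the exact permutation test of 4 against 4 samples gave p = 0.0286 in each, the smallest it can give. For Fgfr2 the exact test gave p = 0.714.

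The make-up of the FGF transcripts is described next by each gene's share of the summed FPKM, with no test. In control samples Fgf7 made up 39.4 to 57.2% of the 5 ligands and Fgf22 11.6 to 20.01%. In IMQ + NS samples Fgf22 made up 68.0 to 70.8%, Fgf5 14.0 to 18.1% and Fgf7 5.87 to 9.84%. The dermal ligand Fgf7 thus had the largest share in each control sample, and Fgf22 in each IMQ + NS sample. The summed FPKM of the 5 ligands was 14.3 to 16.4 in control samples and 36.1 to 39.3 with IMQ + NS. Among the receptors Fgfr1 went from 37.2 to 55.3% of the sum in control samples to 30.5 to 35.3% with IMQ + NS, and Fgfr3 from 14.5 to 24.5% to 35.6 to 39.5%. Both ends of these control ranges closest to the IMQ + NS samples came from control replicate 2. The summed FPKM of the 4 receptors was 53.9 to 83.4 in control and 55.0 to 65.0 in IMQ + NS samples, so these ranges overlapped.

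**Figure D2:**
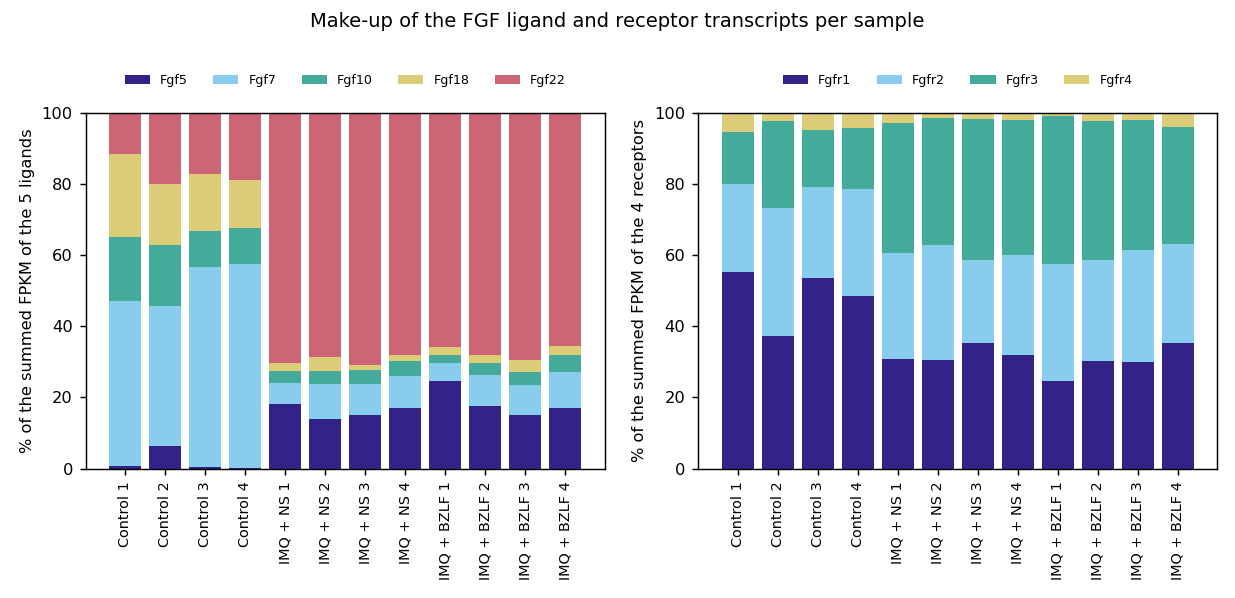
Share of each gene in the summed FPKM of the 5 ligands (left, in %) and of the 4 receptors (right, in %), 1 stacked bar for each of the 12 samples. Fgf22 took 11.6 to 20.01% of the ligand sum in control samples and 65.4 to 70.8% in the samples with IMQ, and Fgfr3 took 14.5 to 24.5% and 32.9 to 41.6% of the receptor sum.

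The order of the levels also differed between groups. In control skin the mean FPKM ran from Fgfr1 (30.9) over Fgfr2 (19.2), Fgfr3 (12.1) and Fgf7 (7.79) to a cluster of Fgf18, Fgfr4, Fgf22 and Fgf10 (2.72 to 2.16), with Fgf5 last (0.278). Each neighbouring pair from Fgfr1 to Fgf7 overlapped across samples, as did the cluster, whereas Fgf7 lay clear of the cluster and the cluster clear of Fgf5. Within each control sample, however, Fgfr1 was above Fgfr2 and Fgfr2 above Fgfr3, and the overlap of these receptors came from replicate 2. In IMQ + NS skin Fgf22 came first (25.8), followed by Fgfr3 (22.4), Fgfr1 (19.2), Fgfr2 (17.0), Fgf5 (5.98), Fgf7 (3.10), Fgf10 (1.40), Fgfr4 (1.26) and Fgf18 (0.874). Among these neighbours Fgfr1 and Fgfr2 overlapped, as did Fgf10 and Fgfr4, and Fgfr4 and Fgf18. In IMQ + BZLF skin the order began with Fgf22 (31.0) and Fgfr3 (22.5), with Fgfr1 and Fgfr2 next. Fgfr3 overlapped with Fgfr1, and Fgfr1 with Fgfr2. Fgf5 (8.74), Fgf7 (3.61), Fgf10 (1.63), Fgfr4 (1.40) and Fgf18 (1.21) followed in the order seen with IMQ + NS, and again Fgf10 overlapped with Fgfr4 and Fgfr4 with Fgf18.

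The question for the IMQ + BZLF group was whether the formula changed these genes in IMQ-treated skin. None of the 9 was called by limma, beside 2.52% of all genes, and by the adjusted p alone none passed, beside 6.45% of all genes. The unadjusted p was below 0.05 for 2 genes, Fgf5 and Fgf22, and the exact permutation test was below 0.05 for 0. The adjusted p ranged from 0.107 to 0.965, and the samples of both groups overlapped for every gene, while 15.2% of all genes did not overlap. The median difference of the 9 was 0.19, and that of all genes -0.02. Leaving out any 1 sample gave no call either.

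Fgf5 measured 13.5, 7.69, 6.65 and 7.12 FPKM in IMQ + BZLF replicates 1 to 4, a mean of 8.74 ± 3.21. Replicate 1 stood above the rest, and the others reached the upper part of the IMQ + NS range and slightly beyond it. The difference from IMQ + NS was 0.49 (95% interval 0.01 to 0.97, limma adjusted p = 0.208, exact permutation p = 0.0571). Without IMQ + BZLF replicate 1 it was 0.26. Fgf22 measured 36.1, 29.8, 30.8 and 27.4 FPKM, and only the lowest of these lay below the highest IMQ + NS sample. Its difference was 0.26 (95% interval 0.07 to 0.45, limma adjusted p = 0.107, exact permutation p = 0.0571). The hair shaft and inner root sheath genes were not called either, with medians of 0.32 and 0.33.

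The ligands that were lower in IMQ + NS than in control skin overlapped between the groups with and without BZLF. Fgf7 measured 2.74, 3.79, 3.70 and 4.21 FPKM with IMQ + BZLF, and its difference was 0.22 (95% interval -0.16 to 0.59, limma adjusted p = 0.482). Fgf18 measured 1.27, 1.04, 1.44 and 1.09 FPKM, with a difference of 0.51 (95% interval -0.11 to 1.13, limma adjusted p = 0.303). This interval still holds a rise past the limit on size. Fgf10 measured 1.22, 1.51, 1.69 and 2.08 FPKM, with a difference of 0.19 (95% interval -0.16 to 0.53, limma adjusted p = 0.517).

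Receptor levels with IMQ + BZLF were close to those with IMQ + NS, though the precision differed widely. Fgfr3 had the narrowest interval, at 24.4, 23.2, 21.7 and 20.8 FPKM and a difference of 0.01 (95% interval -0.14 to 0.16). Fgfr2 measured 19.3, 16.7, 18.6 and 17.6 FPKM, with a difference of 0.10 (95% interval -0.18 to 0.38). Fgfr1 measured 14.4, 18.0, 17.8 and 22.3 FPKM, with a difference of -0.10 (95% interval -0.35 to 0.16). For these 3 receptors the interval excludes a change past the limit on size in either direction. Fgfr4 had the widest interval, at 0.553, 1.41, 1.16 and 2.45 FPKM and a difference of 0.04 (95% interval -0.84 to 0.92). This interval came close to the limit on size at both ends but did not pass it. The adjusted p of 0.965 for Fgfr4 therefore goes with values that ran from 0.553 to 2.45 FPKM within 1 group.

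**Figure D3:**
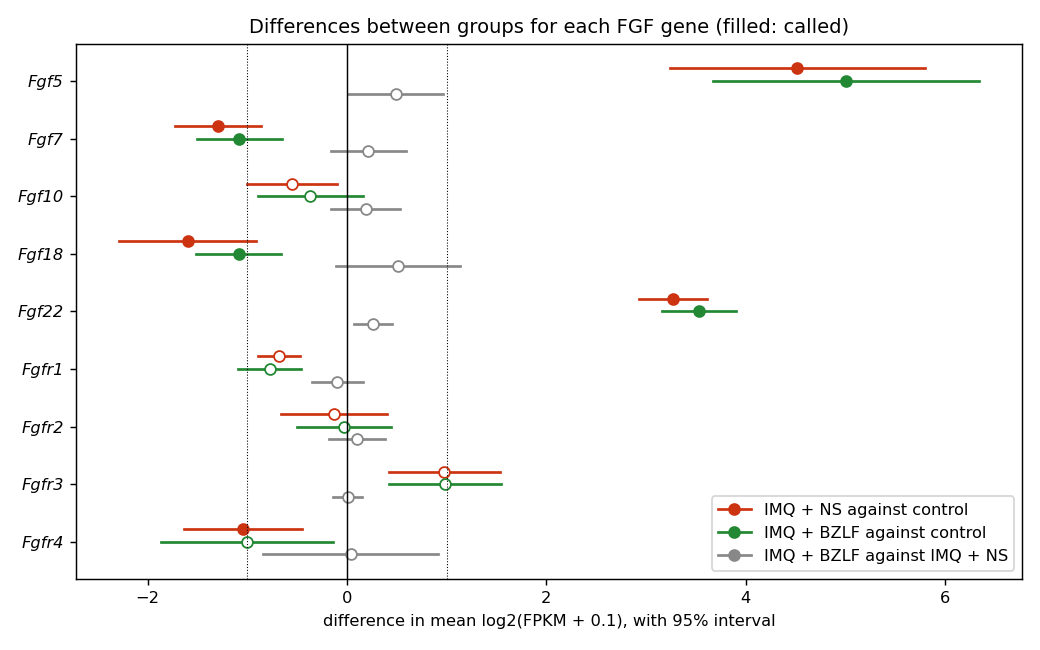
Difference in mean log2(FPKM + 0.1) with its 95% interval from limma (horizontal axis) for the 9 FGF genes in 3 comparisons of 4 against 4 samples, with filled points for called genes and dotted lines at -1 and 1. The comparisons with control skin put Fgf5 and Fgf22 far to the right (3.27 to 5.01), while all 9 differences between IMQ + BZLF and IMQ + NS lay between -0.10 and 0.51.

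Against control samples, which were also the controls of the IMQ + NS comparison, 4 of the 9 genes were called in the IMQ + BZLF group, beside 19.7% of all genes (9.65% higher and 10.1% lower). By the adjusted p alone 6 of 9 passed, beside 53.0% of all genes. Fgf5 rose by 5.01 (95% interval 3.67 to 6.35, limma adjusted p = 2.9e-04) and Fgf22 by 3.53 (95% interval 3.16 to 3.90, limma adjusted p = 1.1e-06). Fgf7 fell by 1.08 (95% interval -1.50 to -0.65, limma adjusted p = 0.00168) and Fgf18 fell by 1.09 (95% interval -1.51 to -0.66, limma adjusted p = 0.0017). The falls were close to the limit on size. The call of Fgf7 was lost without control replicate 4 (-0.98) or IMQ + BZLF replicate 1 (-0.96), and that of Fgf18 without control replicate 1 (-0.93).

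The remaining differences between IMQ + BZLF and control samples were not called. Fgfr1 differed by -0.77 (limma adjusted p = 0.00206), Fgfr3 by 0.99 (0.00984 by the same test), Fgf10 by -0.37 (0.209) and Fgfr2 by -0.03 (0.914). For Fgfr1 and Fgfr3 the groups did not overlap, which brought the genes without overlap to 6 of 9, beside 47.5% of all genes. Fgfr4, at -1.002, had an adjusted p of 0.0519 in limma and an exact permutation p of 0.0857. Without control replicate 2, 6 of 9 were called, beside 24.5% of all genes. Fgfr3 then differed by 1.27 (limma adjusted p = 3.4e-06), Fgfr4 by -1.14 (0.0335), and both were called, and Fgfr2, still not called, by 0.20 (0.0329). Leaving out IMQ + BZLF replicate 3 or 4 also gave a call of Fgfr3 (1.002 and 1.02), and leaving out replicate 4 one of Fgfr4 (-1.31).

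Further genes of FGF signaling were read from 4 lists. Of 17 other FGF ligands, 11 passed the filter on low values, all with means under 3 FPKM. In IMQ + NS against control samples 2 of these were called higher and 3 lower, with a median of -0.73. Of all genes 11.4% were called higher and 11.0% lower. The 2 higher genes, Fgf3 and Fgf23, passed the filter only through samples with IMQ, so their calls are partly set by the filter. Fgf3 was listed at 0 in all 4 control samples and measured 0.646, 0.0219, 0.417 and 0.313 FPKM with IMQ + NS, so that no fold is given. Fgf23, the hormone of phosphate balance, was listed at 0, 0, 0 and 0.0129 FPKM in control samples and measured 0.199, 0.170, 0.634 and 0.673 FPKM with IMQ + NS (adjusted p = 0.00145 in limma). Fgf12 and Fgf13, of the FGF group that stays inside the cell, fell by 1.89 and 1.42, and Fgf9 fell by 1.39. Fgf13 went from 1.55 ± 0.197 to 0.524 ± 0.131 FPKM. Levels of Fgf3, Fgf9, Fgf12 and Fgf23 were below 1 FPKM in all samples except for Fgf3 in IMQ + BZLF replicate 1 (1.32 FPKM).

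Of 14 co-receptors and binding proteins, 13 were tested, 2 were called higher and 1 lower in IMQ + NS against control samples, with a median of 0.58. This stands beside 11.4% of all genes called higher and 11.0% lower. Sdc1, a heparan sulfate carrier of epithelial cells, went from 71.8 ± 16.5 to 221 ± 14.5 FPKM, a difference of 1.65 (SE 0.149, limma adjusted p = 4.7e-05). Flrt3, a membrane protein that binds FGF receptors, rose by 2.05. Its control samples held 3.72, 11.8, 4.36 and 3.83 FPKM, with the highest value in replicate 2, and its IMQ + NS mean was 21.96 ± 0.8288 FPKM. Without replicate 2 the rise was 2.44. Klb, the co-receptor for the endocrine ligand Fgf21, fell from 2.16 ± 0.750 to 0.825 ± 0.297 FPKM.

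None of 14 genes that pass the signal from the receptor to the MAP kinases was called by limma in any of the 3 comparisons. Of all genes 22.4% were called in IMQ + NS against control, 2.52% in IMQ + BZLF against IMQ + NS and 19.7% in IMQ + BZLF against control samples. The median of the 14 in IMQ + NS against control samples was 0.25, beside 0.05 for all genes. Of 15 feedback inhibitors and target genes, 14 were tested, 2 were called higher and none lower, with a median of 0.36. Of all genes 11.4% were called higher and 11.0% lower in that comparison of IMQ + NS with control samples. Dusp5, a phosphatase that ERK induces and that acts back on ERK, rose by 1.77, from 6.03 ± 2.47 to 19.6 ± 2.56 FPKM. Etv4, an ETS factor downstream of FGF receptors, measured 1.59, 11.1, 1.58 and 2.46 FPKM in control samples and 15.0 ± 0.947 FPKM with IMQ + NS, a rise of 2.32 (limma adjusted p = 0.00649). As for Fgfr3, its highest control sample was replicate 2, and without it the rise was 2.95 (limma adjusted p = 2.0e-06). Without that replicate 2 further genes of this list were called, Ccnd1 higher (1.04) and Spry2 lower (-1.06), both named after their values were seen.

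In IMQ + BZLF against IMQ + NS samples none of the genes of the 4 lists was called, beside 2.52% of all genes. The medians were 0.11 for the other ligands and 0.0034 for the co-receptors and binding proteins. They were -0.03 for signal transmission and 0.10 for the feedback inhibitors and target genes, beside -0.02 for all genes. Against control samples the IMQ + BZLF group had Sdc1 (1.49), Flrt3 (2.17), Dusp5 (1.79) and Etv4 (2.54) higher and Klb (-1.66) lower. Among the other ligands 1 was higher, Fgf3, and 4 were lower, namely Fgf6 (-1.52), Fgf9 (-1.16), Fgf11 (-1.04) and Fgf12 (-1.20). Fgf3 passed the filter only through samples with IMQ, and Fgf6 and Fgf12 only through control samples, so these calls are partly set by the filter. In this comparison 19.7% of all genes were called. Without control replicate 2 Etv4 was higher by 3.17, Flrt3 by 2.56 and Ccnd1, then called as well, by 1.24, and Fgf13 was called lower too (-1.04).

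**Figure D4:**
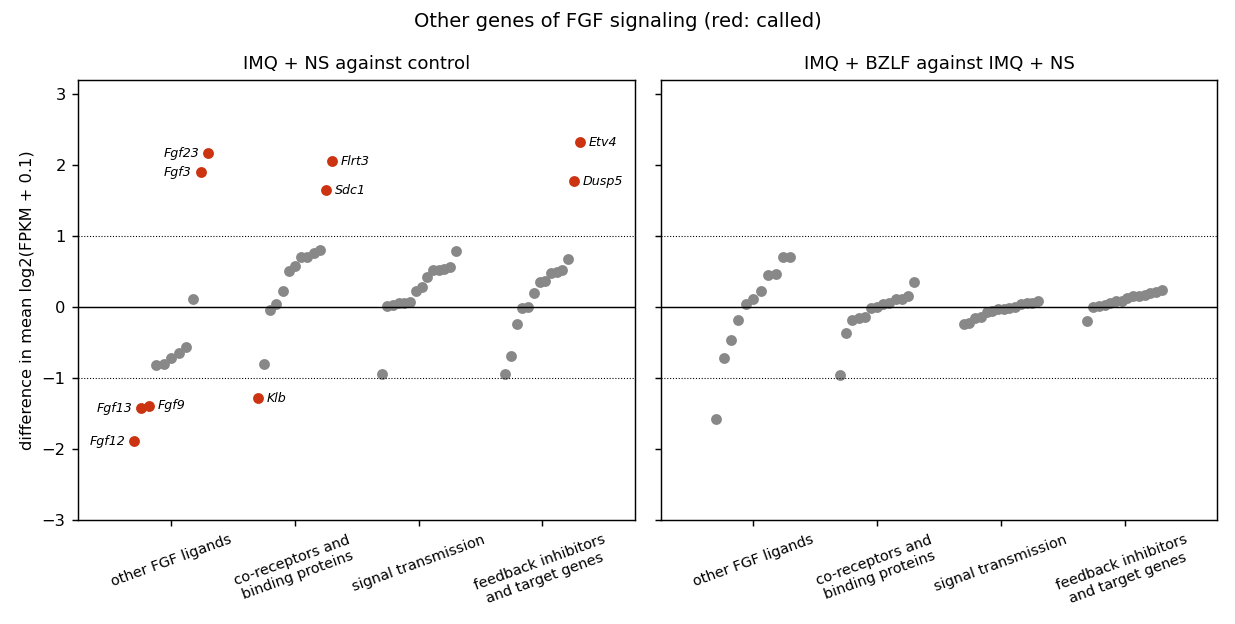
Difference in mean log2(FPKM + 0.1) (vertical axis) for each tested gene of 4 lists of FGF signaling (horizontal axis), in IMQ + NS against control samples (left) and IMQ + BZLF against IMQ + NS samples (right), with called genes in red and dotted lines at -1 and 1. On the left 10 of 52 genes are called, beside 22.4% of all genes tested. They run from Fgf12 at -1.89 to Etv4 at 2.32, and the point of Fgf3 is no fold, since its control samples were all listed at 0. Fgf3, Fgf12 and Fgf23 passed the filter on low values only through the samples where they were high. On the right none is called.

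For each of the 9 genes the 3 genes with the most similar pattern were read from 12656 others with a mean of at least 1 FPKM, by Pearson's r over the 12 samples. This is a description, since the 12 samples share the differences between the groups. Fgf22 lay closest to Rnf222, Lpin3 and Dusp14 (r of 0.998 to 0.997), and Rnf222 went from 1.84 FPKM in control samples to 24.3 with IMQ + NS. Fgf5 lay closest to Baz1a, Zdhhc13 and Lap3 (0.998 to 0.996). Fgf7 had Bicc1, Asb10 and Maob (0.983 to 0.980) as its nearest genes, and Fgf18 had Sncg, Mfsd8 and Zfyve21 (0.962 to 0.959). Those of Fgf10 were Zfp637, Tcaf1 and Acly (0.945 to 0.935).

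Among the receptors, Fgfr3 had the closest neighbours, with Spats2, Plxnb1 and Cstf2 (r of 0.994 to 0.993), and after removal of the group means their r was 0.980, 0.988 and 0.976. These values rest largely on control replicate 2, since they were 0.690, 0.761 and 0.479 over the 11 other samples. Fgfr1 lay nearest to Itsn1, St3gal2 and Scn7a (0.980 to 0.976), Fgfr2 to Hnrnpdl, Bag5 and Nt5c3b (0.934 to 0.928) and Fgfr4 to Olfml2b, Htra1 and Fst (0.948 to 0.932). For the Fgfr2 neighbours r after removal of the group means was 0.94, 0.96 and 0.96. Without control replicate 2 it was 0.75, 0.85 and 0.90. No neighbour was shared between any of the 9 genes.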

How the data were processed

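RNA-seq of 12 samples of mouse back skin, 4 in each of 3 groups, was analysed as FPKM values that the authors deposited for 18505 genes, 1 value per gene and sample, not on a log scale and not pooled. The authors' methods describe mirVana extraction, a stranded TruSeq library, Bowtie2 alignment to transcripts and FPKM from eXpress, whereas the sample labels name TRIzol, another library kit, fastp, HISAT2, HTSeq, R 3.2.0 and the build mm10. These accounts differ, and which of them made the table is not known. Counts were not analysed here. Of 15663 low values, 20.1% lay within 0.05 of a whole multiple, so fragments were not recovered and the depth is unknown. The FPKM sums were 444660 to 461199 in control, 492551 to 506622 in IMQ + NS and 476676 to 493935 in IMQ + BZLF samples. All columns were mapped to samples by name.

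Genes with a mean of at least 0.1 FPKM over the 12 samples, a total of 15288, entered limma 3.58.1 in R 4.3.3 as log2(FPKM + 0.1), 1 fit for each pair of groups with variances trended on expression, with Benjamini-Hochberg adjustment over all of them. The constant understates the change of low genes. A gene was called at an adjusted p below 0.05 and a difference over 1 in size. For single genes an exact permutation test of 4 against 4 samples, two-sided, was added (smallest p 0.0286). The method was tested on simulated data.

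The 9 genes and all lists were chosen with earlier results of these data known. The genes named are the 9, the called genes of the 4 FGF lists (up to 4 per list and comparison by size, and all where 5 or fewer were called), and the 3 genes most like each of the 9 by Pearson's r. Locations and promoter stretches come from RefSeq on GRCm38.p6, the assembly that mm10 names, in which 18369 symbols of the file were found. Neither the labels nor the methods say whether equal replicate numbers mark a shared batch or day. Same-numbered samples had correlations of their deviations from the group means between -0.152 and 0.26, below 0.1 for some pairs of each comparison, so no pairing was used. The alternatives were other constants, filters, scalings, variance models and thresholds, the replicate block, and each sample left out in turn.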

Additional observations from a re-analysis of the deposited data

Results flagged for a closer look

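Among the 27 sets of 4 values that the 9 FGF genes had in the 3 groups, 4 held a sample that stood apart from the other 3 by Dixon's criterion at the 95% level, which chance alone meets in about 1 of 20 sets. Fgf5 was 0.889 FPKM in control replicate 2, where the other control samples were at 0.130 or less. Fgfr2 was 30.01 FPKM in the same sample, and 15.3 to 16.3 in the others. Fgfr3 was 20.4 FPKM there, and 8.97 to 9.61 in the others. In the IMQ + BZLF group, Fgf5 was 13.5 FPKM in replicate 1, and 6.65 to 7.69 in the others.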

How the results depend on the processing

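A constant of 1 in the logarithm lowered the number of genes called from 3418 to 2191 in IMQ + NS against control samples, from 385 to 205 in IMQ + BZLF against IMQ + NS samples and from 3017 to 1844 in IMQ + BZLF against control samples. The FGF genes called fell with it from 5 to 3 in the first and from 4 to 2 in the last comparison. With no limit on the size of the difference, 8569, 986 and 8098 genes were called, and 8 of the 9 FGF genes in IMQ + NS against control samples. With each sample left out in turn, the called FGF genes were 4 to 6, 0 to 0 and 3 to 6, and all called genes 3090 to 4067, 252 to 405 (252 without IMQ + NS replicate 3) and 2581 to 3750. The same step turned the sign of differences that were near 0. In IMQ + BZLF against IMQ + NS samples these were Fgfr1 (-0.20 to 0.0079), Fgfr2 (-0.025 to 0.17), Fgfr3 (-0.029 to 0.047) and Fgfr4 (-0.27 to 0.38). Fgfr2 ranged from -0.22 to 0.10 in IMQ + NS and from -0.12 to 0.20 in IMQ + BZLF against control samples. Of 270 differences of the FGF genes under the other alternatives, 263 kept their direction and their side of the threshold, 4 lost the call, 3 gained it and 0 reversed. The 4 were Fgf18 and Fgfr4 in IMQ + NS and Fgf7 and Fgf18 in IMQ + BZLF against control samples, all with the constant of 1. The 3 were Fgfr4 in IMQ + BZLF against control samples with equal sums, with quantile normalization and with all 12 samples in 1 fit. Scaling the samples to equal sums moved the median of all genes in IMQ + NS against control samples from 0.05 to -0.07. With the replicate block 3414, 382 and 2984 genes and 5, 0 and 4 of the FGF genes were called, and the pairing changed no call of an FGF gene. The causes were not tested. With 4 samples in each group and depth not estimated, small changes of the scarcest genes, Fgfr4 above all, could not be resolved.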

Other observations

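A pair of genes from the FGF lists separated IMQ + BZLF from IMQ + NS samples by limma's adjusted p but not by the limit on size, and they were chosen after their values were seen. They were 2 of 52 list genes tested (3.85%), beside 6.45% of all genes that passed in this comparison. Fgfbp1, a carrier that frees FGFs from the matrix, measured 24.8, 40.1, 33.3 and 37.5 FPKM in control samples, 50.5, 54.1, 61.6 and 51.7 FPKM with IMQ + NS and 25.9, 25.6, 31.4 and 29.6 FPKM with IMQ + BZLF. All IMQ + BZLF samples lay below all IMQ + NS samples, with a difference of -0.95 (95% interval -1.15 to -0.76, limma adjusted p = 0.00108). Of the 4 control values 3 lay above the highest IMQ + BZLF value, and that of replicate 1 lay below the lowest. Between IMQ + BZLF and control samples the difference was -0.25 (95% interval -0.60 to 0.09, limma adjusted p = 0.188). Fgf11, of the FGF group that stays inside the cell, measured 1.96, 1.67, 1.65 and 1.90 FPKM with IMQ + NS and 1.16, 1.34, 1.15 and 1.42 FPKM with IMQ + BZLF, a difference of -0.47 (95% interval -0.73 to -0.22, limma adjusted p = 0.0422). Fgf23 came close to the threshold, with 0.0258, 0.0130, 0.0634 and 0.147 FPKM in the IMQ + BZLF samples, a difference of -1.58 from IMQ + NS (limma adjusted p = 0.0583). It passed the filter on low values only through the IMQ + NS samples, where it was highest.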
